A study of Mus musculus with 18 samples.

Results

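The liver of mice under chronic restraint stress was compared with the liver of control mice across all genes with enough reads to test. In chronic restraint stress the animals are repeatedly held confined, a model of lasting psychological stress, and the control mice were labelled as controls with no treatment given. The members were the 14253 genes, of 34932 in the table, that passed the low-count filter within 6 liver libraries, 3 of control and 3 of stress, out of 18 libraries from liver, brain and testis in 6 groups. The stated question was how this stress alters the transcriptome of the tissues. The labels give no strain, sex, age, genotype or duration of restraint for any group, so the groups are described here by tissue and treatment. The code of each liver library shares its stem with that of a testis library, so the mice were male if a shared stem marks 1 animal, which no label states. The series' design text calls the replicates biological. The p values given here weigh the difference between the groups against the spread of the libraries within a group, with 3 in each.

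The liver is built of repeated lobules in which blood runs from the portal tract to the central vein, and hepatocytes along that path divide the work between them. Periportal hepatocytes make glucose and urea and break down amino acids, pericentral hepatocytes make glutamine, bile acids and drug-metabolising enzymes, and mid-lobular cells are known for the iron hormone hepcidin. Kupffer cells (resident macrophages), sinusoidal endothelium, stellate cells, bile duct cells and lymphocytes make up the rest of the tissue. Glucocorticoids, the steroid hormones released in stress, act on hepatocytes through a nuclear receptor and are known to raise genes of glucose production.

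Library totals ranged from 29953967 to 35100049 counts. The 15 hepatocyte markers summed to between 81430 and 110000 CPM (counts scaled to a common library size) in the 6 libraries, and Alb (serum albumin) alone had 47650, 50930 and 60900 CPM in control and 44580, 56810 and 40920 CPM in stress. In a principal component analysis of log2 CPM, the first component held 39.3% of the variance and separated the groups, with control at -26.45, -34.03 and -34.36 and stress at 32.55, 17.57 and 44.71. Stress replicate 2 lay nearest to the controls on it. The second component held 22.1% and set control replicate 1 apart at -47.27. Stress replicate 2 also stood apart from the other stress libraries in several of the gene groups below.

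In stressed liver, the lipid enzymes Scd1 (fatty acids) and Hmgcs1 (cholesterol) fell, and Pck1, the enzyme that commits carbon to glucose synthesis, rose. Of 19 markers of resident macrophages, 8 rose, while most of the zonation markers did not pass the test. By edgeR's quasi-likelihood test with Benjamini-Hochberg adjustment, 140 genes rose and 92 fell at an adjusted p under 0.05, which is 1.63% of the genes tested (0.982% higher and 0.645% lower). Of these, 95 rose and 59 fell at least 2-fold. The median log2 fold change of all tested genes, stress minus control, was -0.01, and 90% lay between -0.82 and 0.84. At an unadjusted p under 0.05, 8.78% of genes were higher and 8.37% lower. The CPM ranges of the groups were disjoint in 23% of genes (12% higher and 11.1% lower). These shares over all genes are the background for the counts given for each list below. The 64 gene lists used below cover 1002 tested genes, of which 34 rose and 26 fell.

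How far these calls rest on single libraries was measured by leaving out each of the 6 in turn. Of the 232 calls, 24 passed in all 6 fits, 12 higher and 12 lower. Without stress replicate 3 only 15 genes were called higher and 16 lower, and without stress replicate 1 the counts were 39 and 22. No called gene changed its direction in any of these fits. The 12 that rose throughout were Angptl4, C4a, Zbtb16, Tsc22d3, Fkbp5, Per2, C1qc, Proser2, Ablim3, P4ha2, Pisd-ps1 and Gm6969. Pisd-ps1 and Gm6969 are annotated as pseudogenes, and C4a as a processed transcript. The 12 that fell throughout were Scd1, Acsl3, Vnn1, Ugt1a5, Socs3, Fosb, Fst, Aqp8, Cib3, Tchh, Eps8l1 and Fam198a.

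**Figure D1:**
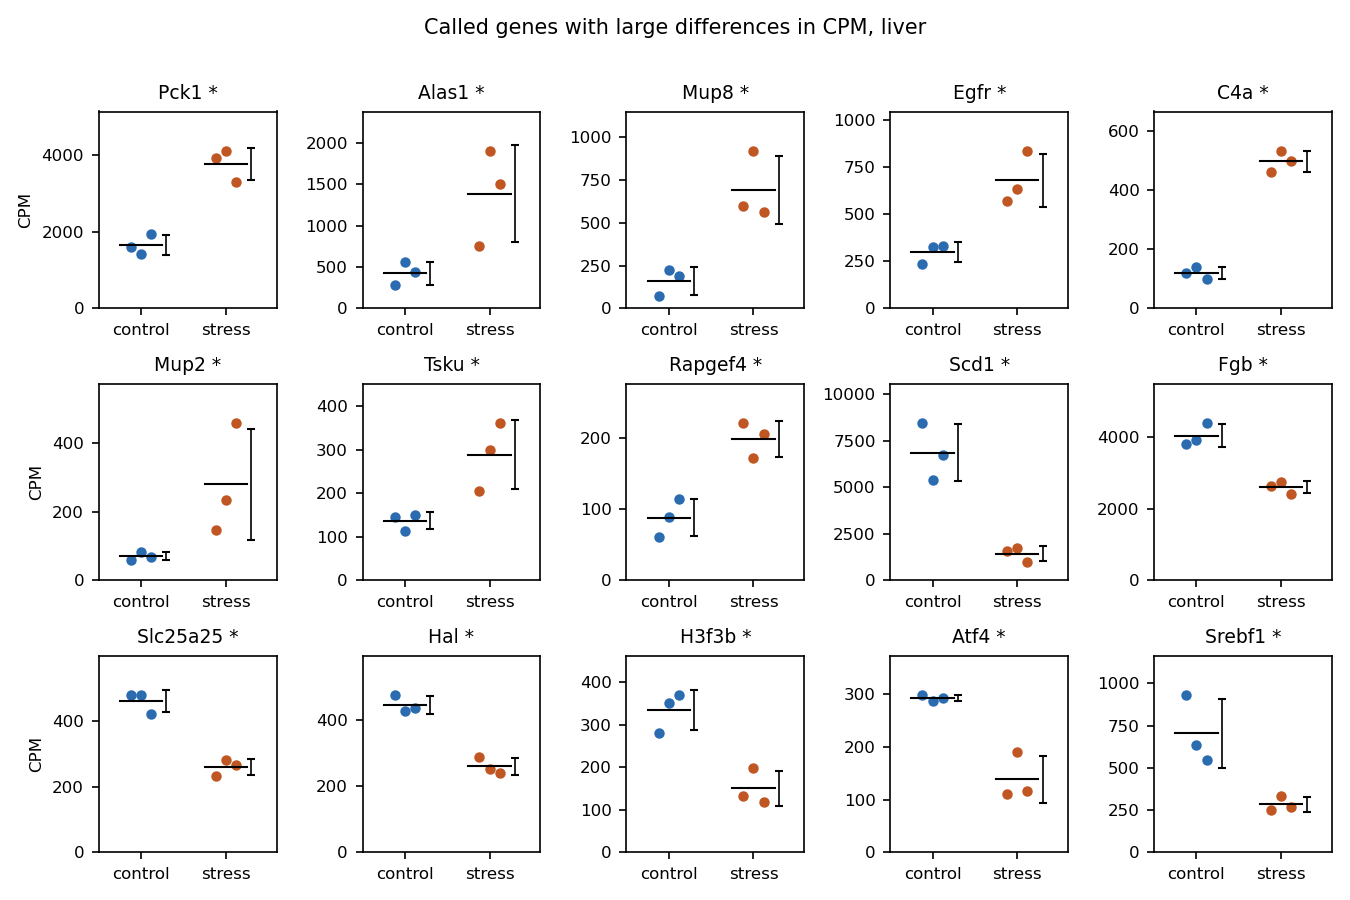
CPM in each of the 3 control (blue) and 3 stress (orange) liver libraries for 15 called genes with large differences in CPM, with the mean as a line, the SD as a bar beside it and an asterisk for a called gene. Pck1, with 3302 to 4112 CPM in stress against 1415 to 1943 in control, and Scd1, with 999.7 to 1747 against 5415 to 8453, show groups that do not overlap.

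Zonation was measured first, from lists of genes known to mark the position of a hepatocyte in the lobule. Of 24 pericentral genes, 1 rose and 0 fell, and the list's median log2 fold change was 0.17 against -0.01 for all genes (0.05 without control replicate 3). Of 22 periportal genes, 1 rose and 1 fell, with a median of -0.08. The difference of the pericentral and periportal medians was 0.09, 0.09 and -0.1 in the control libraries and 0.31, -0.03 and 0.29 in the stress libraries. Stress replicate 2 thus fell among the controls, and the other 2 stress libraries lay above them.

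Glul (glutamine synthetase), which is made by the last rows of cells around the central vein, had 1071, 893.3 and 870.4 CPM in control and 1248, 982.3 and 1109 CPM in stress (log2 fold change 0.24 ± 0.15 SE, edgeR adjusted p = 0.457). Cyp2e1, the pericentral cytochrome P450 that oxidises ethanol, had 7167, 6109 and 5166 CPM in control and 8009, 7477 and 6994 CPM in stress (0.29 ± 0.15, edgeR adjusted p = 0.361). The groups overlapped in both genes. Cyp1a2, a P450 that oxidises caffeine, had 923.3, 860.1 and 770.7 CPM against 1068, 937.7 and 1469 CPM without overlap (0.44 ± 0.18, edgeR adjusted p = 0.245). Oat (ornithine aminotransferase) differed by 0.22 ± 0.19 on the same scale (edgeR adjusted p = 0.606). The pericentral gene that passed was Slc13a3, a carrier of dicarboxylates, with 18.84, 10.86 and 12.17 CPM in control and 34.18, 27.68 and 35.08 CPM in stress (1.21 ± 0.21, edgeR adjusted p = 0.0305). It no longer passed without control replicates 2 or 3 or stress replicates 1 or 3 (edgeR adjusted p up to 0.128). The 10 feedback targets of Wnt, the signal from the central vein that maintains pericentral identity, gave 0 calls in edgeR, DESeq2 and limma-voom, and at an unadjusted p under 0.05 held 1 higher and 1 lower gene.

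Among periportal genes, Hal (ENSMUSG00000020017), the enzyme that opens histidine breakdown, fell from 476.5, 427.2 and 435.6 CPM in control to 287.9, 253.3 and 239.3 CPM in stress (log2 fold change -0.78 ± 0.13, edgeR adjusted p = 0.0268). All stress libraries lay below all controls. Cyp2f2, a periportal P450, had 753.2, 874.3 and 801 CPM against 859.4, 903.1 and 1002 CPM with overlapping groups (0.19 ± 0.13, edgeR adjusted p = 0.515). Sds (serine dehydratase) and Gls2 (liver glutaminase) had log2 fold changes of -0.47 ± 0.19 and -0.34 ± 0.12 (edgeR adjusted p = 0.246 and 0.184). Gls2 did not overlap, with 457.2, 481.1 and 453 CPM in control and 383.8, 355 and 357.3 CPM in stress. The call of Hal held without control replicate 1 but was lost without any other library (edgeR adjusted p between 0.0592 and 0.152).

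The 6 mid-lobular genes had a median log2 fold change of -0.91, with 2 lower and 0 higher. Cyp8b1 (ENSMUSG00000050445), the enzyme that directs bile acid synthesis to cholic acid, fell from 97, 187.6 and 172.3 CPM to 36.33, 42.64 and 54.32 CPM (-1.78 ± 0.25, edgeR adjusted p = 0.0143). Hamp2, a close relative of the hepcidin gene, fell from 39.59, 23.39 and 20.39 CPM to 9.002, 9.671 and 4.483 CPM (-1.85 ± 0.32, edgeR adjusted p = 0.0322). Hamp itself, which encodes hepcidin, the hormone that blocks iron export, had 1096, 820 and 657 CPM in control and 1703, 1756 and 1371 CPM in stress (0.91 ± 0.20, edgeR adjusted p = 0.0534). The pair therefore had values of opposite sign, each without overlap of the groups. Igfbp1, a binding protein of insulin-like growth factors, ranged widely, with 100.8, 48.08 and 211.1 CPM against 37.93, 47.96 and 10.11 CPM (-1.91 ± 0.59, edgeR adjusted p = 0.143). The call of Cyp8b1 was lost without stress replicate 1 (edgeR adjusted p = 0.0612), and that of Hamp2 without control replicate 2 or stress replicates 1 or 3 (up to 0.0934).

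**Figure D2:**
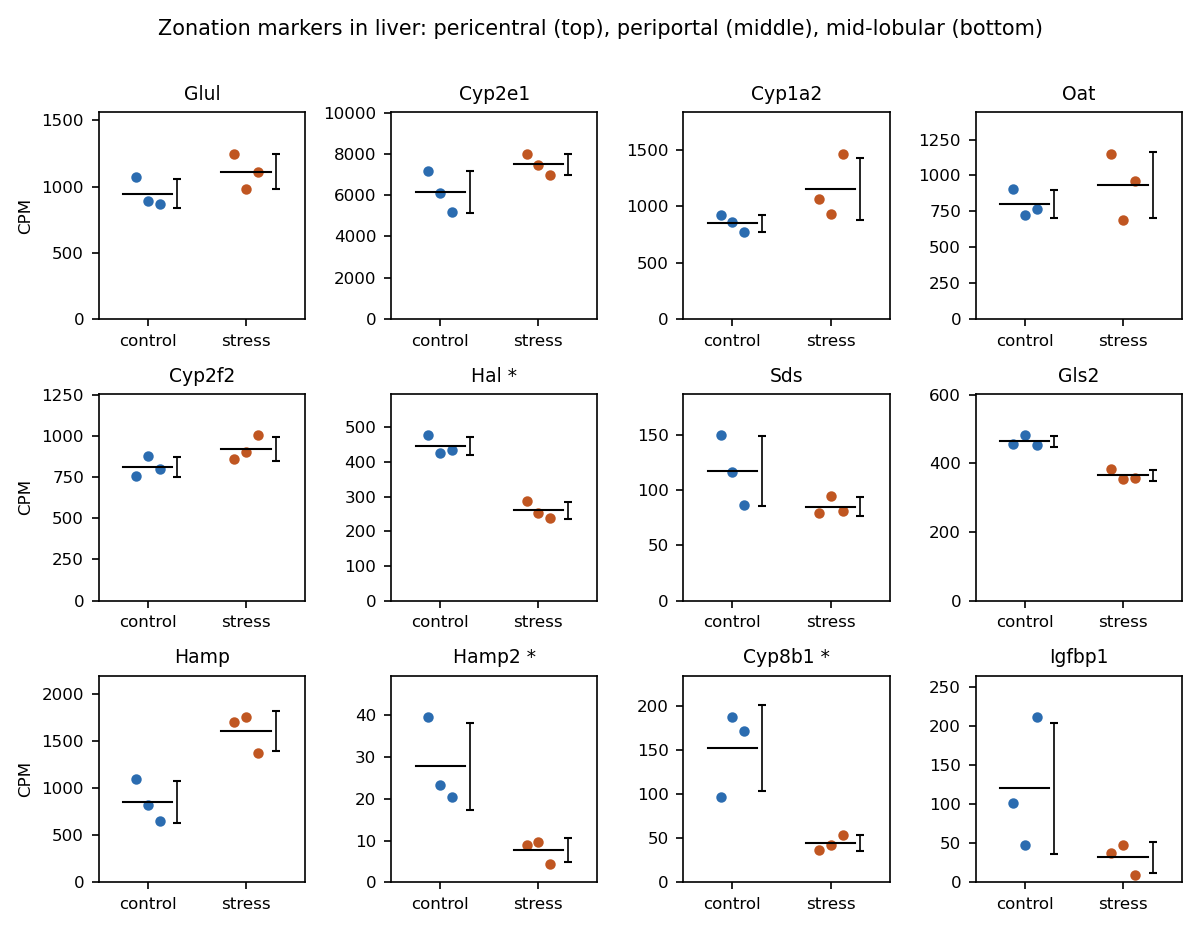
CPM of 12 zonation markers in each control (blue) and stress (orange) liver library, pericentral in the top row, periportal in the middle and mid-lobular at the bottom, with means as lines, SDs as bars and an asterisk for a called gene. Hal, Hamp2 and Cyp8b1 passed, and Glul and Cyp2e1 show overlapping groups.

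Transcription factors that set hepatocyte identity gave 1 higher and 1 lower of 31, with a median of 0.18 that was -0.03 without stress replicate 2. The lower gene was Srebf1, described with the lipid genes. At an unadjusted p under 0.05, 9 of the 31 were higher and 4 lower, against 8.78% and 8.37% of all genes. DESeq2 called 5 higher and 1 lower. Hnf4a, the nuclear receptor central to hepatocyte identity, had 468.7, 475.7 and 557.8 CPM against 519.5, 784.2 and 682.6 CPM with overlap (log2 fold change 0.40 ± 0.17, edgeR adjusted p = 0.264). Klf15, Onecut2 and Foxa3 had log2 fold changes of 0.60, 0.62 and 0.996 without overlap and did not pass (edgeR adjusted p = 0.0662, 0.0677 and 0.0747).

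Among plasma proteins, single genes of clotting and of thyroid hormone transport fell, and a complement gene rose. Fgb, the beta chain of fibrinogen, fell from 3784, 3921 and 4384 CPM to 2630, 2752 and 2405 CPM (log2 fold change -0.63 ± 0.13, edgeR adjusted p = 0.0476). The other chains, Fgg and Fga, had values of -0.55 and -0.47, also without overlap, and did not pass (edgeR adjusted p = 0.0665 and 0.177). Of the 21 genes of clotting and fibrinolysis, 1 fell and 0 rose, with a median of -0.08. Serpina7, which encodes thyroxine-binding globulin, fell from 56.42, 59.98 and 103.6 CPM to 12.05, 22.36 and 5.17 CPM (-2.47 ± 0.45, edgeR adjusted p = 0.0359) and was the 1 called gene of 16 carrier proteins. The 21 acute phase genes gave 0 higher and 1 lower, again Fgb, and a median of -0.05. Without control replicate 1, whose own median for that list was 0.39 above the control mean, the median was 0.36 with 2 higher and 2 lower.

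C4a (ENSMUSG00000015451), a copy of the complement component 4 gene, rose from 121, 138.9 and 100.7 CPM to 463.5, 534 and 499.1 CPM (log2 fold change 2.05 ± 0.16, edgeR adjusted p = 0.00207). It is annotated as a processed transcript, not as a protein-coding gene. It was the 1 called gene of 22 complement genes of hepatocyte origin, whose median was 0.11. Its near-identical copy C4b had 1883, 1238 and 1174 CPM against 1171, 1319 and 1311 CPM (-0.18 ± 0.19, edgeR adjusted p = 0.68). How the authors' counting divides reads between the copies is not known, so the level of either is uncertain. Cyp21a1, a steroid 21-hydroxylase gene that lies next to C4a in the RefSeq annotation, also rose, from 2.91, 7.26 and 5.25 CPM to 14.99, 36.96 and 23.85 CPM (2.30 ± 0.38, edgeR adjusted p = 0.0249). C4a passed in every leave-one-out fit. The call of Fgb held only without control replicate 1 (edgeR adjusted p up to 0.227 otherwise) and was also lost on the TPM scale and with a replicate block. Serpina7 was lost without control replicates 2 or 3 or stress replicates 1 or 3 (up to 0.119), and Cyp21a1 without replicate 3 of either group (up to 0.0872).

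**Figure D3:**
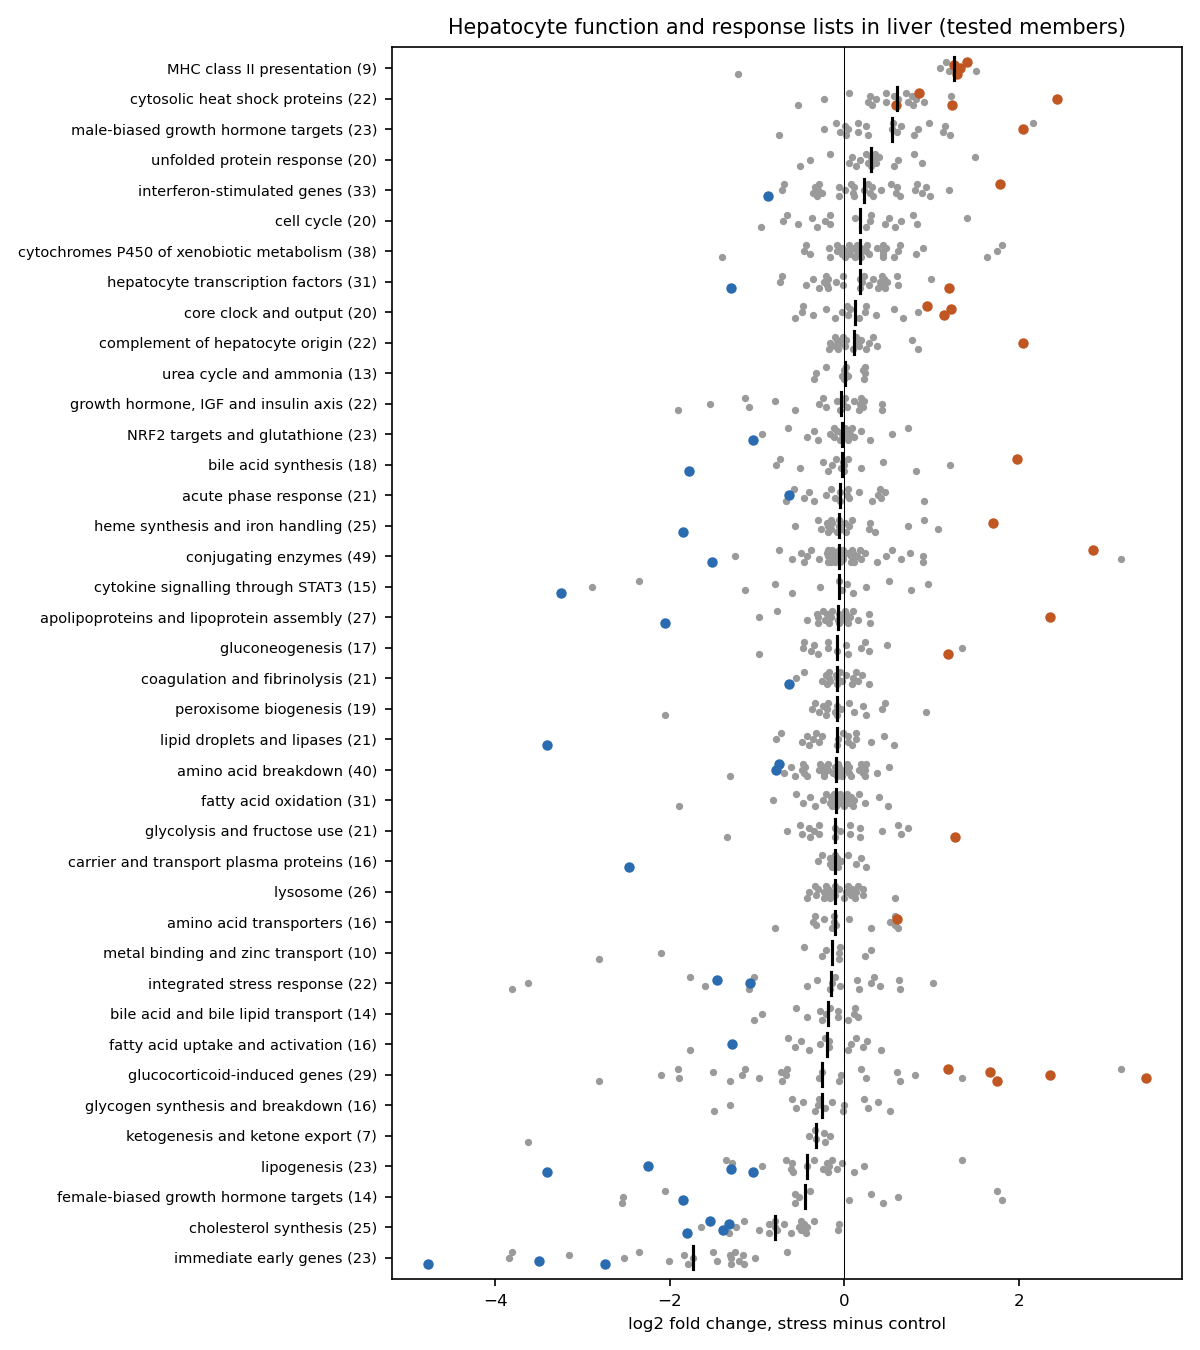
Log2 fold changes (stress minus control) of the tested members of 40 lists of hepatocyte functions and responses, ordered by median (black bar), with the number of tested members in parentheses, called higher genes in orange, called lower genes in blue and others in grey. Immediate early genes (median -1.74) and cholesterol synthesis (-0.79) stand lowest, and MHC class II presentation (1.25) and cytosolic heat shock proteins (0.61) highest.

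Genes of glucose output had values of both signs. Of 17 gluconeogenic genes, 1 rose and 0 fell, with a median of -0.08 and a range from -0.98 to 1.35. At an unadjusted p under 0.05, 3 were higher and 4 lower, against 8.78% and 8.37% of all genes. DESeq2 called 3 of them higher and 1 lower. Pck1 (ENSMUSG00000027513), cytosolic phosphoenolpyruvate carboxykinase, rose from 1606, 1415 and 1943 CPM to 3914, 4112 and 3302 CPM (log2 fold change 1.19 ± 0.16, edgeR adjusted p = 0.0119). G6pc, the phosphatase that releases free glucose, had the opposite sign, with 867.5, 493.2 and 632.4 CPM against 297.6, 325.6 and 387.6 CPM (-0.98 ± 0.21, edgeR adjusted p = 0.0519). The 2 genes did not overlap between the groups, so stressed liver held more Pck1 RNA in every library and less G6pc RNA than any control. Without stress replicate 1 the call of Pck1 was lost (edgeR adjusted p = 0.0531).

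In glycolysis and fructose use, 1 of 21 genes rose, Hk3, a hexokinase known from myeloid cells (log2 fold change 1.26 ± 0.26, edgeR adjusted p = 0.0479), from 1.92, 1.37 and 2.14 CPM to 4.80, 3.93 and 4.32 CPM. The list also held 7 genes lower at an unadjusted p under 0.05, among them the glucose carrier Slc2a2 and Khk (ketohexokinase), with log2 fold changes of -0.49 and -0.51 (edgeR adjusted p = 0.116 and 0.128). The 16 genes of glycogen metabolism gave 0 calls in edgeR and limma-voom and 2 lower in DESeq2, with 4 lower at an unadjusted p under 0.05 and a median of -0.25. Leaving out any of the 6 libraries ended the call of Hk3 (edgeR adjusted p up to 0.176).

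Nitrogen metabolism gave few calls. The 13 genes of the urea cycle and ammonia handling gave 0 calls in edgeR, DESeq2 and limma-voom, with 2 lower at an unadjusted p under 0.05, a median of 0.01 and a range from -0.34 to 0.24. Cps1, its entry enzyme, differed by 0.01 ± 0.23 in log2 (edgeR adjusted p = 0.989). Of 40 genes of amino acid breakdown, 10 were lower and 2 higher at an unadjusted p under 0.05, with a median of -0.10. Over all genes those shares were 8.37% and 8.78%. After adjustment, 2 fell and 0 rose. The 2 are enzymes of histidine breakdown, Hal and Amdhd1, the latter from 254.6, 228.2 and 294.1 CPM to 172.8, 152.9 and 135.8 CPM (-0.75 ± 0.15, edgeR adjusted p = 0.047). Leaving out any of the 6 libraries ended the call of Amdhd1 (edgeR adjusted p up to 0.213). Slc16a10, a carrier of aromatic amino acids, was the 1 of 16 amino acid transporters that rose (0.61 ± 0.11, edgeR adjusted p = 0.0359), and it was lost without any library other than control replicate 1 (up to 0.172).

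Some genes of fatty acid synthesis and all those listed for cholesterol synthesis had lower values in stress. Of 23 lipogenic genes, 4 fell and 0 rose, with 10 lower and 1 higher at an unadjusted p under 0.05. The median was -0.43, in a range from -3.41 to 1.35. DESeq2 called 8 lower and 1 higher, and edgeR without stress replicate 1 also called 1 higher. Without control replicate 1 the median was -0.17, and without stress replicates 1 or 3 the calls were 2 and 1 lower. Scd1 (ENSMUSG00000037071), stearoyl-CoA desaturase, which makes monounsaturated fatty acids, fell from 8453, 5415 and 6703 CPM to 1562, 1747 and 999.7 CPM (log2 fold change -2.25 ± 0.24, edgeR adjusted p = 0.00461). Srebf1, which encodes the transcription factor SREBP-1 that drives lipogenesis, fell from 931.7, 634.9 and 545 CPM to 253.8, 335.1 and 267.5 CPM (-1.30 ± 0.21, edgeR adjusted p = 0.0235). Every stress library lay below every control for these genes. Pnpla3, a lipase of lipid droplets, fell from 13.28, 4.34 and 5.25 CPM to 0.83, 0.73 and 0.59 CPM (-3.41 ± 0.46, edgeR adjusted p = 0.0119), and Me1, malic enzyme, fell from 199, 104.1 and 157.4 CPM to 74.16, 70.17 and 79.28 CPM (-1.04 ± 0.21, edgeR adjusted p = 0.0476). Fasn, fatty acid synthase, had 3134, 1621 and 2089 CPM against 536.7, 1451 and 810 CPM, lower without overlap but not past the threshold (-1.29 ± 0.35, edgeR adjusted p = 0.101). Scd1 passed in all leave-one-out fits. Pnpla3 was lost without stress replicate 3 (edgeR adjusted p = 0.0718), Srebf1 without control replicate 2 or stress replicates 1 or 3 (up to 0.125), and Me1 without any library other than control replicate 2 (up to 0.167). Me1 was also lost with limma-voom and on the TPM scale, and Pnpla3 on the TPM scale.

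All 25 genes of cholesterol synthesis had negative log2 fold changes, with a median of -0.79. The test called 4 of them lower and 0 higher. At an unadjusted p under 0.05, 22 were lower, against 8.37% of all genes. In 16 the groups did not overlap, against 11.1% of all genes lower without overlap. Hmgcs1, the cytosolic HMG-CoA synthase, fell from 268.7, 424.7 and 323.3 CPM to 108.5, 153.8 and 87.82 CPM (log2 fold change -1.54 ± 0.23, edgeR adjusted p = 0.0192). Control replicate 2 was the highest library and stress replicate 2 the highest of the stress libraries. Msmo1 and Mvd, enzymes of later and earlier steps, fell with log2 fold changes of -1.39 and -1.32 (edgeR adjusted p = 0.026 and 0.0235), and Sqle, squalene epoxidase, had -0.79 (edgeR adjusted p = 0.0507). The median over all 25 in the stress libraries relative to the control mean was -0.86, -0.46 and -1.04. Without stress replicate 1 or without stress replicate 3, 0 of the 25 passed in edgeR. Without stress replicate 2, 11 passed, without control replicate 1, 10 passed, without control replicate 2, 1 passed, and DESeq2 on all 6 libraries called 12. The median stayed between -0.66 and -0.97 over all settings run. Hmgcs1 and Msmo1 also lost their calls without control replicate 2, and Mvd only without those 2 stress libraries (edgeR adjusted p up to 0.125).

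The RefSeq promoter of Hmgcs1 is shown because cholesterol genes are textbook targets of SREBP, whose sterol response element was searched as TCACCCCAC on both strands. In the table of RefSeq promoters (build GRCm38.p6, 250 bases before to 50 after each start site, found by symbol for 10371 of the tested genes), 0.752% held this 9-letter match, 1 of 17 cholesterol genes did, and that 1 was Hmgcs1. The window is chr13:119690101-119690400, plus strand, and the match is in capitals.
Hmgcs1: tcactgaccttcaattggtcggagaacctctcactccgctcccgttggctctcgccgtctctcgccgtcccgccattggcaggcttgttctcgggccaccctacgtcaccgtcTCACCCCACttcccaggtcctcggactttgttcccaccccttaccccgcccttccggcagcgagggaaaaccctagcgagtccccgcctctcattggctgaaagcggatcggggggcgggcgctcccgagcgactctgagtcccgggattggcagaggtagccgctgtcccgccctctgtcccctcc
The first of the 9 letters is at position -137 from the start site. The match is a description of the sequence and was not tested for binding.

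Other lipid genes moved singly. Angptl4 (ENSMUSG00000002289), a secreted inhibitor of lipoprotein lipase, rose from 28.38, 19.9 and 25.33 CPM to 149.6, 93.02 and 134.6 CPM (log2 fold change 2.36 ± 0.20, edgeR adjusted p = 0.00207), with a clear gap between the groups. Acsl3, an acyl-CoA synthetase of lipid droplet formation, fell from 51.18, 47.9 and 43.92 CPM to 18.55, 20.61 and 19.27 CPM (-1.29 ± 0.12, edgeR adjusted p = 0.00286). Pltp, the phospholipid transfer protein, fell (-2.06 ± 0.39, edgeR adjusted p = 0.0401), and so did Pparg, a nuclear receptor of fat storage, from 12.63, 9.70 and 9.69 CPM to 5.13, 4.41 and 4.91 CPM (-1.15 ± 0.18, edgeR adjusted p = 0.0223). The 31 genes of fatty acid oxidation gave 0 calls in edgeR and limma-voom and 1 lower in DESeq2, with an unadjusted p under 0.05 in 1 higher and 1 lower genes and a median of -0.10. All 7 genes of ketone body synthesis and export had negative values, with a median of -0.33, 0 calls in edgeR and limma-voom, 1 lower in DESeq2 and 4 lower at an unadjusted p under 0.05. Angptl4 and Acsl3 passed in all leave-one-out fits. Pltp was lost without control replicate 3 or any stress library (edgeR adjusted p up to 0.166), and Pparg without any stress library (up to 0.101). Pltp was also lost with limma-voom and on the TPM scale.

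Bile acid enzymes moved in both directions. Of 18 genes, 1 rose and 1 fell, and the median was -0.03. Opposite to Cyp8b1, Cyp39a1, an oxysterol hydroxylase, rose from 7.02, 3.33 and 9.81 CPM to 26.78, 24.75 and 28.17 CPM (log2 fold change 1.98 ± 0.31, edgeR adjusted p = 0.0223). Cyp2c70, which makes the muricholic acids of mice, and Cyp7b1, the oxysterol 7-alpha-hydroxylase, had 0.82 and 1.21 without overlap but did not pass (edgeR adjusted p = 0.0534 and 0.0835). Cyp7a1, the rate-limiting enzyme of the classic pathway, had 54.18, 59.33 and 94.18 CPM against 36.46, 47.96 and 61.12 CPM with overlap (-0.51 ± 0.24, edgeR adjusted p = 0.311). Cyp39a1 did not pass without stress replicates 1 or 3 (edgeR adjusted p up to 0.0934).

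Heme and drug metabolism showed single calls. Alas1, the rate-limiting enzyme of heme synthesis, rose from 280.2, 561 and 435 CPM to 750.1, 1904 and 1500 CPM (log2 fold change 1.70 ± 0.34, edgeR adjusted p = 0.0476), with stress replicate 1 the lowest of its group but above every control. The 38 cytochromes P450 of xenobiotic metabolism gave 0 calls in edgeR, 6 higher and 1 lower in DESeq2 and 2 higher in limma-voom, with an unadjusted p under 0.05 in 9 higher and 2 lower genes and a median of 0.18. Among 49 conjugating enzymes, Ugt1a9 rose from 3.84, 10.18 and 9.96 CPM to 59.91, 82.9 and 30.1 CPM (2.85 ± 0.43, edgeR adjusted p = 0.0182), and Ugt1a5 fell from 21.28, 23.56 and 21.29 CPM to 6.57, 8.73 and 7.79 CPM (-1.52 ± 0.15, edgeR adjusted p = 0.00351). The UGT1A genes, which attach glucuronic acid to drugs and bilirubin, share their last exons, so the division of reads between them is uncertain. Ugt1a5 passed in all leave-one-out fits. Ugt1a9 failed without control replicate 2 or stress replicate 1 (edgeR adjusted p up to 0.0579), and Alas1 without any library other than stress replicate 1 (up to 0.165). Alas1 did not pass with limma-voom either, nor on the TPM scale.

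Genes that growth hormone drives to higher levels in male liver had a median of 0.55, with 19 of 23 positive, 1 higher and 8 higher at an unadjusted p under 0.05. Their median relative to the control mean was -0.43, 0.46 and -0.12 in the control libraries and 0.66, 0.30 and 0.71 in the stress libraries, so the groups overlapped, with stress replicate 2 below control replicate 2. Over all settings run the fold change median ranged from 0.35 without control replicate 1 to 0.76 without control replicate 2. The 1 called gene was C4a, and Selenbp2, a selenium-binding protein gene, had 154.5, 715.8 and 225.6 CPM against 1420, 1498 and 1995 CPM (log2 fold change 2.17 ± 0.49, edgeR adjusted p = 0.0602). The 14 tested genes of the female-biased list had a median of -0.45, with Hamp2 the 1 called gene. Relative to the control mean they lay at -0.24, 0.18 and -0.63 in stress, with stress replicate 2 above every control, and the fold change median was -0.25 without stress replicate 1 and -0.26 without stress replicate 3. Mup8 and Mup2, major urinary protein genes outside both lists, rose from 69.64, 223.7 and 188 CPM to 599.6, 920.2 and 560.3 CPM (2.11 ± 0.38, edgeR adjusted p = 0.0359) and from 60.53, 83.1 and 69.19 CPM to 145.9, 233.6 and 457.9 CPM (1.98 ± 0.36, edgeR adjusted p = 0.0353). Mup3, of the same family of near-identical genes, had 7279, 14580 and 11920 CPM against 10880, 11510 and 10240 CPM (-0.05 ± 0.22, edgeR adjusted p = 0.937), and reads may be divided among such copies in ways the table does not show. The call of Mup8 held only without control replicate 1, and that of Mup2 only without stress replicates 1 or 2 (edgeR adjusted p up to 0.0937 and 0.096 otherwise).

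Glucocorticoid-induced genes split. Of 29 tested, 5 rose and 0 fell, while 17 had negative values and the median was -0.25. Tsc22d3 (GILZ, an anti-inflammatory mediator) had 66.44, 38.26 and 50.1 CPM in control and 164.1, 152.7 and 205.3 CPM in stress. Zbtb16, a transcription factor, had 2.12, 3.60 and 3.57 CPM against 19.45, 49.65 and 33.05 CPM, and Fkbp5, a co-chaperone that restrains the receptor, 13.07, 12.29 and 17.85 CPM against 34.98, 58.99 and 43.06 CPM. These 3 rose with gaps between the groups (log2 fold changes 1.75, 3.46 and 1.67, edgeR adjusted p = 0.00722, 0.00351 and 0.0108), as did Angptl4 and Pck1. On the other side, Irs2, Pdk4, Mt2 and Sgk1 had -1.14, -1.89, -2.82 and -0.73 without overlap and did not pass (edgeR adjusted p = 0.0511, 0.08, 0.078 and 0.0747). Tat and Tdo2, amino acid enzymes long used as hormone responses in liver, had 0.19 and -0.06 (edgeR adjusted p = 0.56 and 0.92). Relative to the control mean, the median of these 29 was -0.31, 0.40 and -0.12 in the stress libraries, so stress replicate 2 lay apart from the other 2. Between 5 and 6 members were called higher in each leave-one-out fit, while the median ran from -0.57 without stress replicate 2 to -0.07 without control replicate 3 or stress replicate 3.

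The promoter of Sgk1, a kinase gene of ion transport, is shown because the full palindrome of the glucocorticoid response element, searched on both strands as AGAACA, any 3 bases and TGTTCT, was found in 0.0193% of the 10371 promoters, which is 2 genes. These were Sgk1 and Acnat2, an acyltransferase gene whose log2 fold change was 0.60 (edgeR adjusted p = 0.497). The window, at 1 of the start sites the table gives for Sgk1, is chr10:21993640-21993939, plus strand, in build GRCm38.p6 from RefSeq, with the palindrome in capitals.
Sgk1: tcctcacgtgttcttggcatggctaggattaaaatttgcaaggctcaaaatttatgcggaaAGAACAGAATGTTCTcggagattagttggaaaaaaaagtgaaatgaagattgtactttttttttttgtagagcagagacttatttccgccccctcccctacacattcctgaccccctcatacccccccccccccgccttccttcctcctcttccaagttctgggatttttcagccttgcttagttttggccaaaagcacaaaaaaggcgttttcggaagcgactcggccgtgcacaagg
Its first base is at position -189 from the start site. Sgk1 had 16.3, 17.7 and 21.42 CPM in control and 11.18, 13.18 and 9.10 CPM in stress, so every stress library was below every control. Of the called higher genes with a promoter in the table, 0 of 92 held the palindrome, which says nothing of sites elsewhere.

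Of 20 tested clock genes and outputs, 3 rose and 0 fell, with a median of 0.12. Per2, a repressor of the core loop, rose from 65.65, 55.19 and 53.27 CPM to 112.4, 148.5 and 145.4 CPM (log2 fold change 1.22 ± 0.15, edgeR adjusted p = 0.00827). Usp2 and Noct, a deubiquitinase and a phosphatase with rhythmic RNA in liver, rose with 1.15 and 0.95 (both edgeR adjusted p = 0.0438). The activators Arntl and Clock had 0.36 and 0.07, and the outputs Dbp and Nr1d1 had -0.48 and -0.21 (edgeR adjusted p between 0.168 and 0.914). Per2 passed in all leave-one-out fits, and Usp2 and Noct were lost without control replicate 2 or any stress library, Usp2 also without control replicate 3 (edgeR adjusted p up to 0.128). The hours at which tissues were taken are not in the sources used here.

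Immediate early genes, which cells switch on within minutes of a stimulus, were lower in stress, and their size rested on 2 of the 3 stress libraries. All 23 tested members had negative log2 fold changes, with a median of -1.74, 3 lower and 0 higher. At an unadjusted p under 0.05, 16 were lower, against 8.37% of all genes. Fosb, a subunit of the AP-1 factor, fell from 25.65, 23.09 and 29.8 CPM to 1.28, 4.56 and 1.05 CPM (-3.50 ± 0.47, edgeR adjusted p = 0.0116). Fos, its relative, had 628.1, 843 and 511.6 CPM in control and 2.88, 827.4 and 4.38 CPM in stress, and Egr1, a zinc finger factor, had 689.4, 950.1 and 992.3 CPM against 6.09, 1052 and 2.81 CPM. Stress replicate 2 thus lay at the control level for these 2 genes while stress replicates 1 and 3 were near 0, and neither gene passed (edgeR adjusted p = 0.723 and 0.712). The median over all 23 relative to the control mean was -3.99, -0.76 and -3.66 in the stress libraries. Myc, a growth regulator, fell from 30.68, 31.21 and 43.89 CPM to 2.05, 11.09 and 2.58 CPM (-2.74 ± 0.54, edgeR adjusted p = 0.047), and Nr4a3, an orphan nuclear receptor, fell (-4.78 ± 0.99, edgeR adjusted p = 0.0498). Without stress replicate 2, 18 of the 23 were lower in edgeR and the median was -3.93. Leaving out another library left 1 or 2 lower, and limma-voom on all 6 libraries gave a median of -2.67. Myc was lost without any library other than stress replicate 2 and Nr4a3 without any other than control replicate 1 (edgeR adjusted p up to 0.164). Nr4a3 also did not pass with limma-voom, library size alone, the filter of 1 CPM or the TPM scale. How each liver was collected is not given in the sources used here, and its part in these values was not tested.

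Stress replicate 2 was also the highest of the stress libraries for 4 more genes that fell. Socs3 (ENSMUSG00000053113), the feedback inhibitor of interleukin 6 signalling through STAT3, fell from 125, 122.4 and 113.9 CPM to 7.496, 21.64 and 8.998 CPM (log2 fold change -3.24 ± 0.36, edgeR adjusted p = 0.00498), and was the 1 called gene of 15 in that pathway. The medians of those 15 were -0.24, 0.31 and -0.26 in the stress libraries. Atf4, the main transcription factor of the integrated stress response, fell from 298.7, 287.8 and 293.3 CPM to 110.7, 190.4 and 115.8 CPM (-1.08 ± 0.20, edgeR adjusted p = 0.041). Ppp1r15a (GADD34), which ends that response, fell from 50.1, 42.61 and 48.92 CPM to 13.94, 24.03 and 13.64 CPM (-1.46 ± 0.22, edgeR adjusted p = 0.0176). They were the 2 called genes of 22 in the list, whose median was -0.16 and ranged from -0.42 without control replicate 2 to 0.02 without control replicate 3. H3f3b, a replication-independent histone H3.3 gene outside the lists, fell from 280.9, 350.9 and 369.7 CPM to 132.9, 198.1 and 119.4 CPM (-1.15 ± 0.20, edgeR adjusted p = 0.0343). Socs3 passed in all leave-one-out fits. Atf4 held only without stress replicate 2 (edgeR adjusted p up to 0.176 otherwise), Ppp1r15a was lost without stress replicates 1 or 3 (up to 0.0872), and H3f3b held only without control replicate 1 or stress replicate 2 (up to 0.137 otherwise).

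Cytosolic heat shock proteins, the chaperones that refold damaged proteins, had 4 of 22 members called higher, 0 lower and a median of 0.61. At an unadjusted p under 0.05, 13 were higher, against 8.78% of all genes. The list's median relative to the control mean was -0.29, -0.01 and 0.41 in the control libraries. In the stress libraries it was 0.36, 0.91 and 0.61, so the groups overlapped, with stress replicate 1 below control replicate 3. Hspb1 (HSP27) rose from 20.7, 24.64 and 64.32 CPM to 109.7, 319.2 and 165.8 CPM (log2 fold change 2.44 ± 0.49, edgeR adjusted p = 0.0476), with stress replicate 2 the highest. Hspa4l, Stip1 and Ahsa1, a HSP110 family member and co-chaperones of HSP90, rose with 1.23, 0.85 and 0.59 (edgeR adjusted p = 0.0223, 0.0347 and 0.0476). Hspa1b, the stress-inducible HSP70, had 21.98, 149 and 288.2 CPM in control and 117.6, 495 and 174.1 CPM in stress with overlapping groups (0.78 ± 0.76, edgeR adjusted p = 0.653). The 20 genes of the unfolded protein response of the endoplasmic reticulum gave 0 calls in edgeR and limma-voom and 2 higher in DESeq2, with 6 higher at an unadjusted p under 0.05 and a median of 0.30. Without control replicate 2 or without stress replicate 3, 0 heat shock genes passed in edgeR, without stress replicates 1 or 2, 1 passed, without control replicate 3, 6 passed, and with limma on the TPM scale 0 passed. The median stayed between 0.52 and 0.79 in all settings run.

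The promoter of Chordc1, a co-chaperone of HSP90, is shown because heat shock genes are the textbook targets of HSF1, whose element was searched on both strands as GAA, any 2 bases, TTC, any 2 bases and GAA. It was found in 0.55% of the 10371 promoters and in 4 of 18 heat shock genes with a promoter in the table (22.2%), Chordc1, Hspd1, Hspe1 and Hsph1. Hspd1 and Hspe1 have overlapping windows on opposite strands, so their matches are the same bases counted for both genes. Both encode mitochondrial chaperones, although the list is named for cytosolic ones. The list was defined by function, and 0 of the 4 genes passed in edgeR. The window is chr9:18292017-18292316, plus strand, in build GRCm38.p6 from RefSeq, and the capitals cover 3 matches that overlap each other.
Chordc1: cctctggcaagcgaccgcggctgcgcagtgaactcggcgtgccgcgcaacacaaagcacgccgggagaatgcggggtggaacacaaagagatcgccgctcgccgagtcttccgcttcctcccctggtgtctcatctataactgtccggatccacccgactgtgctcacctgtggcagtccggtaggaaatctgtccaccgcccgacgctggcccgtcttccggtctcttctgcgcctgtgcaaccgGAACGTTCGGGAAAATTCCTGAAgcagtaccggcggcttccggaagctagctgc
Chordc1 had 33.07, 33.41 and 52.37 CPM in control and 60.45, 69.6 and 79.71 CPM in stress, without overlap (log2 fold change 0.82 ± 0.19, edgeR adjusted p = 0.0681). Hspd1, Hspe1 and Hsph1 had 0.31, 0.37 and 1.22 with overlapping groups in each.

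Markers of the liver's other cells were read next. In bulk tissue, fewer cells of a type and less RNA per cell cannot be told apart. Kupffer cell markers were higher, with 8 of 19 called higher and 0 lower and a median of 0.89 against -0.01 for all genes. In 13 the groups did not overlap, against 12% of all genes higher without overlap. The list's median relative to the control mean was 1.24, 0.91 and 0.96 in the stress libraries and at most 0.17 in a control. Clec4f, a lectin of Kupffer cells, rose from 31.09, 24.49 and 23.53 CPM to 54.68, 47.3 and 44.53 CPM (log2 fold change 0.89 ± 0.15, edgeR adjusted p = 0.0249). Vsig4, a complement receptor, rose from 4.05, 3.33 and 3.88 CPM to 9.77, 8.13 and 9.72 CPM (1.29 ± 0.18, edgeR adjusted p = 0.0148), and Cd5l, a secreted macrophage protein, from 14.85, 12.73 and 10.52 CPM to 23.74, 23.15 and 23.33 CPM (0.88 ± 0.15, edgeR adjusted p = 0.0304). All stress libraries lay above all controls in these 3 genes, and the same held for Cd163, the hemoglobin scavenger receptor (1.75, edgeR adjusted p = 0.00913).

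The 3 chains of complement C1q, which macrophages make, rose together, with log2 fold changes of 1.23 for C1qa, 1.21 for C1qb and 1.15 for C1qc (edgeR adjusted p = 0.0108, 0.0156 and 0.0108), and Csf1r, the receptor for the macrophage growth factor, rose by 1.11 (edgeR adjusted p = 0.0147). Timd4, a receptor of long-resident Kupffer cells, had 2.12, 0.95 and 1.43 CPM against 4.004, 1.30 and 3.076 CPM with overlap (0.89 ± 0.45, edgeR adjusted p = 0.348). Mrc1, Cd68 and Slc40a1, of the same list, had 0.16, -0.05 and -0.19 (edgeR adjusted p between 0.682 and 0.951). The summed level of the list ran from 378.3 to 424.7 CPM in control and from 519.7 to 615.9 CPM in stress, and no defining marker was at 0. Without stress replicate 3, 1 of the 19 passed in edgeR (C1qc), without stress replicate 1, 3 passed, and the median stayed between 0.83 and 1.08 in all settings run. Leaving out stress replicate 1 ended the calls of Csf1r, C1qb, Vsig4, Clec4f and Cd5l, control replicate 2 those of Csf1r, Clec4f and Cd5l, control replicate 3 those of Clec4f and Cd5l, and stress replicate 2 that of Cd5l (edgeR adjusted p up to 0.125). Clec4f and Vsig4 also did not pass with all 18 libraries in the fit.

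**Figure D4:**
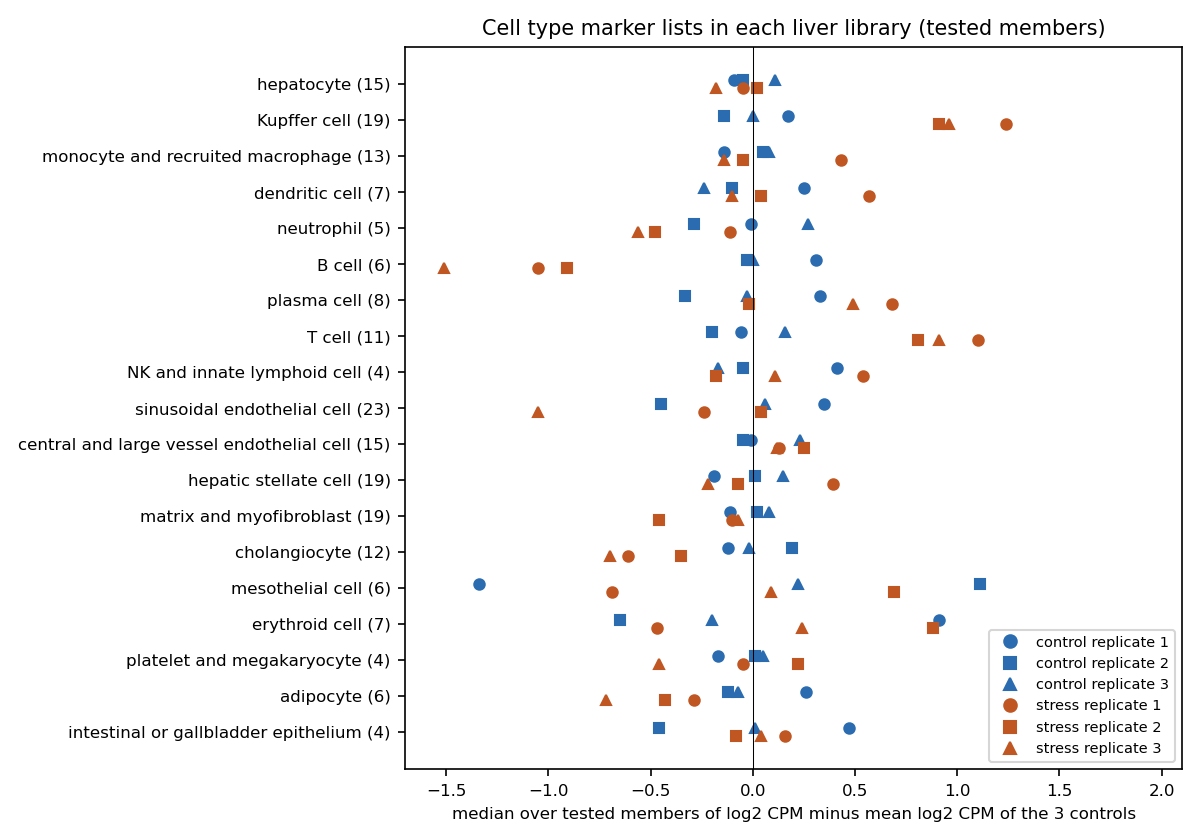
Median over the tested members of each cell type list of log2 CPM minus the mean log2 CPM of the 3 controls, in each control (blue) and stress (orange) liver library, with the number of tested members in parentheses. Kupffer cell (0.91 to 1.24) and T cell (0.81 to 1.10) lists lie above the controls in all 3 stress libraries, and B cell (-1.51 to -0.91) and cholangiocyte (-0.70 to -0.35) lists below.

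Markers of recruited monocytes gave 1 call. Of 13 tested members of that list, 1 rose, Lyz2 (lysozyme, also made by Kupffer cells), from 11.91, 13.69 and 13.29 CPM to 38.89, 24.09 and 26.67 CPM (log2 fold change 1.21 ± 0.19, edgeR adjusted p = 0.022), and the median was 0.20 (0.47 without stress replicate 2 and -0.25 under the filter of 1 CPM). Ccr2, the receptor that brings monocytes into tissue, had 1.08, 1.07 and 0.62 CPM against 1.09, 0.39 and 0.43 CPM with overlap (-0.54 ± 0.51, edgeR adjusted p = 0.637). The 5 tested neutrophil genes had a median of -0.67 (-1.09 without control replicate 3 and -0.12 on the TPM scale), with 0 calls in edgeR and limma-voom, 1 lower in DESeq2 and 2 lower at an unadjusted p under 0.05. Ly6g, a defining neutrophil marker, was at 0 counts in all 6 libraries. Lyz2 was lost without control replicates 2 or 3 or stress replicate 3 (edgeR adjusted p up to 0.0721).

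MHC class II genes, which present antigen on macrophages, dendritic cells and B cells, gave 4 higher and 0 lower of 9, with a median of 1.25. Cd74, the invariant chain, rose from 27.45, 21.99 and 24.43 CPM to 70.86, 40.56 and 73.1 CPM (log2 fold change 1.32 ± 0.21, edgeR adjusted p = 0.0235). H2-Ab1 and H2-Eb1, beta chains, and Ctss, the protease that cuts the invariant chain, rose with 1.25, 1.41 and 1.29 (edgeR adjusted p = 0.0359, 0.0359 and 0.0433). Stress replicate 2 was the lowest of the stress libraries in these 4 genes and still above every control. H2-Ob, which B cells make, had the opposite sign, with 0.79, 0.74 and 0.56 CPM against 0.35, 0.12 and 0.43 CPM (-1.22 ± 0.53, edgeR adjusted p = 0.282). Without control replicates 2 or 3 or stress replicates 1 or 3, 0 of the 9 passed in edgeR, while the median ran from 1.06 to 1.45 in all settings run.

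Lymphocyte markers lay near the lower limit of measurement. The 3 B cell genes Cd79a, Cd79b and Ighd, parts of the B cell receptor complex, had log2 fold changes of -1.42, -1.55 and -2.67 without overlap, and none passed (edgeR adjusted p between 0.0549 and 0.198). The highest of the 3, Ighd, had 1.75, 1.04 and 0.50 CPM in control and 0.19, 0.12 and 0.20 CPM in stress. Of the 6 tested B cell genes, 4 had negative and 2 positive values. The list gave 0 calls in edgeR and limma-voom and 1 lower in DESeq2, with 4 lower at an unadjusted p under 0.05. Under a filter of 1 CPM in 3 libraries, which left only Ighm (an antibody heavy chain), the value was 0.78. The whole list summed to 19.89, 8.471 and 11.77 CPM in control and 24.18, 7.531 and 16.63 CPM in stress, so the summed level overlapped between the groups. All 11 tested T cell genes had positive values, with a median of 0.79, 0 calls in edgeR, DESeq2 and limma-voom, and 2 higher at an unadjusted p under 0.05. On the log2(TPM + 1) scale limma called 2 of them higher and the median was 0.28. Cd3e, a chain of the T cell receptor complex, had 0.06, 0.12 and 0.12 CPM against 0.67, 0.42 and 0.56 CPM (2.41 ± 0.55, edgeR adjusted p = 0.063).

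**Figure D5:**
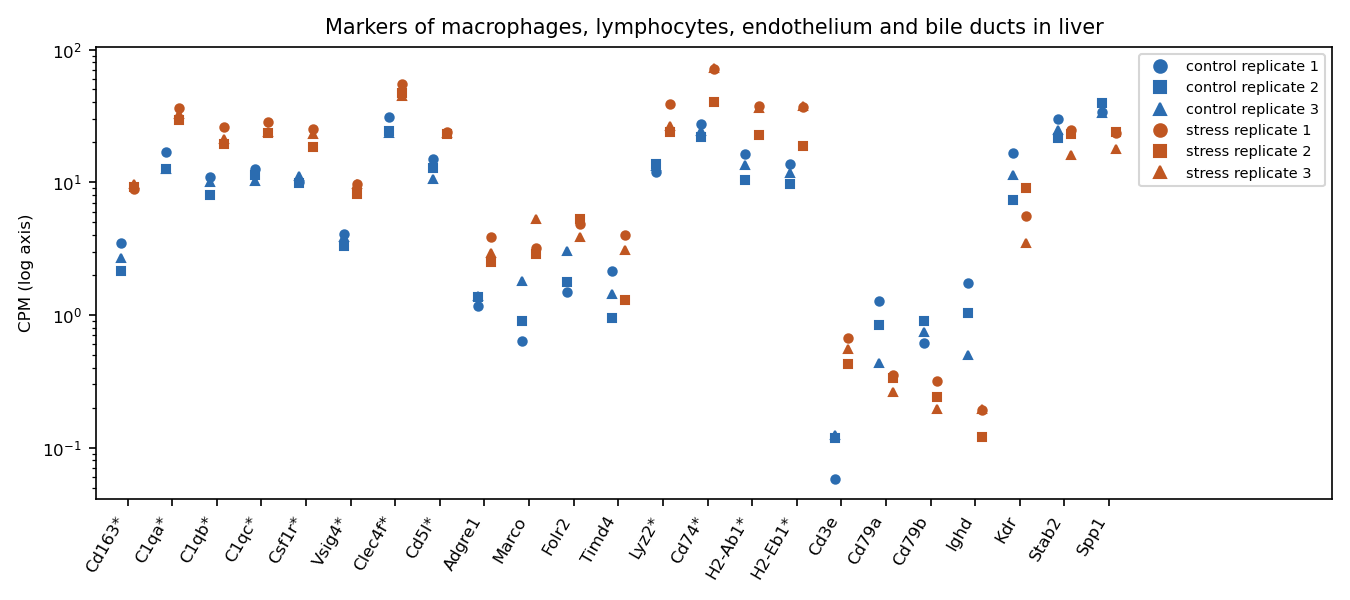
CPM on a log axis of 23 markers of macrophages, antigen presentation, lymphocytes, endothelium and bile ducts in each control (blue) and stress (orange) liver library, with an asterisk for a called gene. The 8 called Kupffer cell genes from Cd163 to Cd5l show no overlap between the groups, and Kdr and Stab2 do.

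Structural cells gave no calls in edgeR. The 23 sinusoidal endothelial genes had a median of -0.41, with 0 calls in edgeR, DESeq2 and limma-voom and an unadjusted p under 0.05 in 1 higher and 6 lower genes. The list's median was -0.24, 0.04 and -1.05 in the stress libraries, with stress replicate 3 the lowest, and the median was -0.12 without that library or without control replicate 1. Stab2, a scavenger receptor of this endothelium, had 30.13, 21.57 and 24.77 CPM against 24.73, 23.27 and 15.9 CPM (log2 fold change -0.26 ± 0.19, edgeR adjusted p = 0.543). The 19 stellate cell genes had a median of 0.04, and Lrat, which stores vitamin A, had 6.64, 10.47 and 6.55 CPM against 10.64, 6.04 and 5.56 CPM (-0.09 ± 0.29, edgeR adjusted p = 0.91). All 12 tested bile duct genes had negative values, with a median of -0.49, 0 calls in edgeR and limma-voom, 1 lower in DESeq2 and 4 lower at an unadjusted p under 0.05. Spp1 (osteopontin) was the closest to passing, with 33.6, 39.6 and 33.25 CPM against 23.32, 24 and 17.9 CPM (-0.71 ± 0.15, edgeR adjusted p = 0.0511), and Krt19, a duct keratin, had 1.05, 1.73 and 1.12 CPM against 0.38, 1.57 and 1.21 CPM (-0.29 ± 0.50, edgeR adjusted p = 0.817).

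Carry-over of neighbouring tissue was looked for through the same kind of list. Of the adipocyte list, Pparg and Cfd (adipsin) fell, Cfd from 2.53, 0.65 and 0.74 CPM to 0.10, 0 and 0.07 CPM (log2 fold change -4.54 ± 0.88, edgeR adjusted p = 0.0438). The defining fat hormone genes were nearly absent, with Lep at 0 counts in every library and Adipoq at 2 counts in control replicate 3 and 0 elsewhere. The list summed to between 3306 and 4551 CPM in control and 2842 and 3257 CPM in stress, mostly from genes that hepatocytes also express. Pancreatic acinar markers summed to at most 0.69 CPM in any library. Leaving out any of the 6 libraries ended the call of Cfd (edgeR adjusted p up to 0.17), and it did not pass with limma-voom or on the TPM scale.

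Outside the lists, Egfr, the receptor of epidermal growth factor, rose from 237.7, 329.1 and 329.3 CPM to 571.7, 632.6 and 837.6 CPM (log2 fold change 1.19 ± 0.19, edgeR adjusted p = 0.0232). Tsku, a secreted protein made by liver, rose from 146.2, 114.2 and 149.3 CPM to 204.3, 298 and 361.3 CPM (1.08 ± 0.21, edgeR adjusted p = 0.0439), and Rapgef4 (EPAC2, a cAMP sensor) from 61.72, 88.81 and 113.8 CPM to 221.4, 171.7 and 205.1 CPM (1.18 ± 0.21, edgeR adjusted p = 0.0352), with its antisense gene Rapgef4os1 also higher. The strand setting of the counting is unknown here, so reads of that pair cannot be told apart. The steepest increases by fold included Guca1b, Hapln1 and Scara5, the last a ferritin receptor, with 4.34, 3.87 and 1.998 (edgeR adjusted p = 0.0223 in all 3). Guca1b and Hapln1 reached at most 1.28 and 2.03 CPM. Meg3, an imprinted noncoding RNA, rose from 12.58, 25.38 and 10.34 CPM to 104.3, 37.9 and 54.58 CPM (2.03 ± 0.41, edgeR adjusted p = 0.0476). The histone genes Hist2h4 and Hist2h3c2, of a family of near-identical copies, rose with 2.70 and 2.33 from under 1 CPM in every control (edgeR adjusted p = 0.0476 and 0.0192). Mroh6 and Eif4ebp3 rose with 2.34 and 2.004 (edgeR adjusted p = 0.0476 and 0.0359). Each of these genes lost its call without stress replicate 3, and the leave-one-out adjusted p of edgeR reached 0.213 (Rapgef4os1, which lost its call whichever library was left out). Control replicate 2 also decided the calls of Egfr, Tsku, Rapgef4, Guca1b, Scara5, Hist2h3c2, Mroh6 and Eif4ebp3, and stress replicate 1 those of Rapgef4, Guca1b, Hapln1, Meg3, Hist2h4, Hist2h3c2 and Mroh6. Control replicate 3 decided those of Tsku, Hapln1, Scara5, Meg3, Hist2h4, Hist2h3c2 and Eif4ebp3, control replicate 1 those of Tsku, Meg3, Hist2h4, Mroh6 and Eif4ebp3, and stress replicate 2 those of Tsku, Hist2h4, Mroh6 and Eif4ebp3.

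The steepest decreases outside the lists included Aqp8, a water channel of hepatocytes, from 202.2, 98.12 and 116.7 CPM to 26.46, 28.65 and 20.71 CPM (log2 fold change -2.46 ± 0.26, edgeR adjusted p = 0.00491), and Fst (follistatin, which binds activins), from 14.93, 12.5 and 12.04 CPM to 3.68, 2.57 and 2.19 CPM (-2.22 ± 0.22, edgeR adjusted p = 0.00351). Cib3, a calcium-binding protein gene, fell from 7.02, 7.71 and 10.86 CPM to 0.58, 0.88 and 0.59 CPM (-3.64 ± 0.29, edgeR adjusted p = 0.00207). Groups were far apart in all 3 genes, and the 3 passed in every leave-one-out fit, as did Tchh, Fam198a and Eps8l1, with -2.81, -2.35 and -4.18. Eps8l1 was low throughout, with 1.92, 1.73 and 2.86 CPM in control and 0.06, 0.15 and 0.13 CPM in stress. Its log2 fold change ranged from -4.42 to -0.81 over all settings run. Efna1, a ligand of Eph receptors, fell from 290, 123.4 and 173.1 CPM to 54.78, 54.28 and 42.8 CPM (-1.95 ± 0.28, edgeR adjusted p = 0.0151), and Slc25a25, a mitochondrial carrier of adenine nucleotides, from 478.9, 479.6 and 422.7 CPM to 233.1, 280.8 and 264.7 CPM (-0.83 ± 0.13, edgeR adjusted p = 0.0232). Fam83f and Gal3st1 fell with -3.90 and -2.34 (edgeR adjusted p = 0.042 and 0.0479). These last 4 genes were lost without stress replicate 3, and all but Fam83f without stress replicate 1. Control replicate 2 also decided all but Efna1, control replicate 3 decided Gal3st1, and control replicate 1 and stress replicate 2 decided Fam83f and Gal3st1 (edgeR adjusted p up to 0.204).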

How the data were processed

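RNA from 3 control and 3 stress livers was sequenced from libraries made with a stranded total RNA kit, per the labels' protocols, and placed on mouse genome build mm39, per the submitters' processing notes. For the aligner, counter, strand mode and gene models, the names and settings were not given in the sources used here. Raw counts per gene, as the authors deposited them, were the basis of all main tests. The deposited TPM (scaled by gene length and library) gave 1 alternative scale. The deposited FPKM entered only a check that 1 gene length was used across libraries. Of the count values from 1 to 10 in the liver libraries, 70% were even, a pattern whose source was not tested.

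Symbols came from GENCODE by gene identifier for 34362 of 34932 genes. Stress was compared with control in edgeR 4.0.16 (R 4.3.3) with TMM factors, filterByExpr within the 6 liver libraries, a quasi-likelihood test, Benjamini-Hochberg adjustment over 14253 genes and a threshold of 0.05. Errors of log2 fold changes are SE of the fit, and CPM use TMM-corrected library sizes. The 64 lists (4 of zonation, 40 of functions, 20 of cell types) are described by counts and medians, with no set test. In all, 12 list symbols had no match in the table. Chi-square divided by degrees of freedom between replicate pairs was 37.77 to 114.72, so no pair was the same library.

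Named genes were fixed zonation, hepatocyte and cell type markers, the 10 higher and 10 lower called genes with the largest CPM difference, up to 5 members of each list with the smallest p, and the 10 highest and 10 lowest log2 fold changes outside the lists with at least 1 CPM in a group and no overlap. The rule skips predicted genes, pseudogenes and small RNAs. Genes named outside it (Fos, Egr1, Fasn, Cps1, Cyp7a1, C4b, C1qb, Cd68, Mrc1, Slc40a1, Ccr2, H2-Ob, Hspa1b, Hspd1, Hspe1, Hsph1, Sgk1, Acnat2, Tat, Tdo2, Arntl, Clock, Nr1d1, Vnn1, antisense genes and the rest of those that passed in every leave-one-out fit) were chosen after their values were seen. Some genes that the rule names are not reported here. The members, lists and rule were chosen with earlier results of these data known.

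On simulated data for these 14253 genes with 200 changed, the test recovered 50% of genes at a 2-fold and 84% at a 4-fold change, with 10 false calls of 144, and made 1 call with no changed gene. Alternatives were DESeq2 1.42.0, limma-voom (limma 3.58.1), 2 other scalings, 2 other filters, limma on log2(TPM + 1), each library left out, a replicate block and a fit of all 18 libraries. No label states that replicate numbers pair control with stress libraries, so they were not taken as pairs. Same-numbered libraries had correlations of their deviations of 0.187, 0.053 and -0.001 across genes, which cannot decide the question with 3 libraries a group.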

Additional observations from a re-analysis of the deposited data

How the results depend on the processing

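The counts of 140 higher and 92 lower genes stayed within 1.5 times with limma-voom, DESeq2 size factors, library size alone and a filter of 1 CPM in 3 libraries. They were 471 and 381 with DESeq2, 450 and 408 without a low-count filter, 90 and 53 on log2(TPM + 1) with limma, and 388 and 504 with all 18 libraries in the fit. With a replicate block they were 261 and 214, although no label states that replicate numbers pair the libraries. Leaving out 1 library gave between 15 and 157 higher and between 16 and 134 lower genes, lowest without stress replicate 3. Of the 232 called genes, 230 were also called with DESeq2, 186 with limma-voom, 116 on the TPM scale and 28 without stress replicate 3, and 0 changed direction in the 15 settings. Of the called genes named, limma-voom lost Alas1, Me1, Pltp, Cfd, Nr4a3, H2-Eb1, Ctss, Eif4ebp3, Fam83f, Gal3st1 and Rapgef4os1, and the fit of all 18 libraries lost Clec4f, Vsig4, Amdhd1 and Fcgr4. The TPM scale lost, among others, Alas1, Me1, Pltp, Cfd, Nr4a3, Fgb, Serpina7, Pnpla3, Mup8, Mup2, Cyp21a1, Atf4, H3f3b, Usp2, Noct, H2-Ab1, Ptprc, Hk3 and the 4 heat shock genes. The filter of 1 CPM lost or left untested Nr4a3, Cfd, Guca1b, Hapln1, Meg3, Gal3st1 and Rapgef4os1, the replicate block lost Fgb and Rapgef4os1, and library size alone lost Nr4a3. With 3 libraries a group, 50% of simulated 2-fold changes were missed, so a gene that did not pass is not shown to be unchanged. The causes of these shifts were not tested, other than that leaving out a library leaves fewer samples.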

Other observations

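Further genes outside the lists passed the same test and were picked for description after their values were seen. Among immune genes, Ptprc (CD45, present on all white blood cells) had 4.80, 4.05 and 5.43 CPM in control and 10.16, 8.43 and 10.77 CPM in stress (log2 fold change 1.04 ± 0.19, edgeR adjusted p = 0.0359). The antibody receptor genes Fcgr3 and Fcgr4, known from macrophages and other myeloid cells, rose with 1.49 ± 0.26 and 1.70 ± 0.29 (edgeR adjusted p = 0.0347 and 0.0272). The groups did not overlap in these 3 genes. All 3 lost their calls without control replicates 2 or 3 or stress replicates 1 or 3, and Fcgr3 also without stress replicate 2 (edgeR adjusted p up to 0.156).

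Among genes that hepatocytes are known to express, Vnn1, the pantetheinase that recycles vitamin B5, fell from 26.14, 22.79 and 21.05 CPM to 6.12, 7.53 and 5.96 CPM (-1.84 ± 0.16, edgeR adjusted p = 0.00207) and passed in every leave-one-out fit. Acmsd, an enzyme that turns tryptophan breakdown away from NAD synthesis, rose from 19.62, 16.87 and 9.40 CPM to 55.81, 48.08 and 54.12 CPM (1.78 ± 0.24, edgeR adjusted p = 0.0115). Leap2, which encodes a liver peptide that opposes ghrelin at its receptor, fell from 71.38, 63.88 and 76.33 CPM to 40.11, 32.49 and 27.88 CPM (-1.07 ± 0.15, edgeR adjusted p = 0.0148). Every stress library lay outside the control range in these 3 genes. Without stress replicate 3 the calls of Acmsd and Leap2 were lost (edgeR adjusted p = 0.0557 and 0.0812).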
